A study of Mus musculus with 21 samples.

Results

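The Slc39a genes encode the ZIP transporters, the family of membrane proteins that carry zinc into the cytosol, either from outside the cell or from the lumen of its organelles. Described here are 10 of the 14 Slc39a genes in the mouse annotation, chosen by name as the rows of Slc39a1, Slc39a3, Slc39a4, Slc39a5, Slc39a6, Slc39a7, Slc39a8, Slc39a9, Slc39a10 and Slc39a14 among 55414 gene identifiers. The rule itself uses names and no measured value. The study sequenced RNA from mouse small intestinal Paneth cells, purified by FACS, in 21 libraries and 6 groups. Per the study's methods, the mice were of the C57BL/6J background and each library came from a single mouse.

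The groups crossed the drinking water with the microbiome. The drinking water was either Milli-Q (purified) water or the same with ZnSO4, given for 7 weeks at the 200 mM printed in the labels. Mice raised specific pathogen free (SPF) gave 3 libraries on each water. Another 4 libraries on each water came from SPF mice that received broad spectrum antibiotics over the final 3 of those weeks. Germ-free mice gave 3 libraries on Milli-Q water and 4 on zinc water. No deletion or transgene is named for any group.

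Dietary zinc enters the body through the epithelium of the small intestine, where ZIP4 (Slc39a4) works at the luminal face of enterocytes and ZIP5 (Slc39a5) at the face turned to the blood. Paneth cells, which lie at the base of the crypts, keep a store of zinc in their secretory granules next to lysozyme and α-defensins. Zinc leaves the cytosol through the ZnT exporters (Slc30a genes) and is bound there by metallothioneins (Mt genes), whose transcription the zinc sensor MTF1 drives.

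The libraries held 9888174 to 16896714 counts. Each of 9 Paneth cell markers, among them Lyz1, Mmp7 and Defa24, was above 0 in every group. Their summed level had group means of 224335 to 637995 CPM (counts scaled to a common library size, which the TMM factors below adjust). The 28 α-defensin (Defa) genes took 39.3 to 44.5% of the counts in germ-free libraries and 24.1 to 36.4% in the others. TMM factors, which scale each library for its composition, were correspondingly 0.522 to 0.834 and 0.996 to 1.49. Markers of other epithelial cells were also present, at group means of 9346 to 18864 CPM for 8 goblet, 2857 to 4250 CPM for 6 stem and cycling, 300.4 to 1315.5 CPM for 11 enterocyte, 119 to 245 CPM for 6 tuft and 66.8 to 151 CPM for 8 enteroendocrine markers. Markers of immune cells (6 genes) summed to 6.80 to 13.0 CPM, with Csf1r at 0 in every group, and those of stromal cells (6 genes) to 0.668 to 1.88 CPM, with Col1a2 and Col3a1 at 0 in every group. The library of SPF mice on zinc water, replicate 1, stood apart by 6228 counts of Xist, the RNA of the inactive X chromosome of females, against at most 34 in any other library. With TMM factors, the Slc39a4 zinc changes in SPF mice and over the mean of the contexts are given with and without this library. So are the differences of Slc39a4 from SPF mice that rest on it, for germ-free and for antibiotics-treated mice.

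Levels were compared between genes as CPM per kilobase of the longest annotated transcript. By this measure Slc39a5 stood first in each of the 6 groups, with a mean of 19.4 ± 3.25 (SD, n = 21 libraries) and a range of 13.99 to 24.5, which was 27.0% of the summed level of the 10 genes. It was followed by Slc39a1 at 11.3 ± 2.18, Slc39a9 at 9.89 ± 1.53, Slc39a14 at 9.52 ± 1.60 and Slc39a8 at 8.43 ± 2.25. Slc39a4 came next at 5.42 ± 2.22. Slc39a3 had a mean level of 3.86 ± 0.528, Slc39a7 of 2.35 ± 0.471, Slc39a10 of 1.19 ± 0.371 and Slc39a6 of 0.860 ± 0.224. By this measure the most abundant of these transcripts encoded the basolateral importer, and the least abundant the LIV-1 partners ZIP6 and ZIP10. Before division by length, Slc39a14 (mean 56.6 CPM) and Slc39a9 (55.0 CPM) stood above Slc39a5 (39.4 CPM), and Slc39a7 (5.71 CPM) below Slc39a10 (12.3 CPM). Slc39a5 also lies within Ankrd52 on the opposite strand, and the use of strand in counting was not given, so its level is uncertain.

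The ranges over libraries overlapped for every neighbouring pair in this order. The ratio of neighbouring means ran from 1.04 for Slc39a9 over Slc39a14 to 1.98 for Slc39a7 over Slc39a10. Slc39a5 was above Slc39a1 in 20 of 21 libraries and Slc39a7 above Slc39a10 in 21 of 21, while Slc39a9 was above Slc39a14 in 11 of 21. Slc39a4 varied most, with a highest level 5.07 times its lowest. It ranked 5th in SPF mice on Milli-Q water and 7th in SPF mice on zinc water. The summed level of the 10 genes lay between group means of 66.0 ± 3.20 (SD, n = 4), after antibiotics on zinc water, and 77.9 ± 9.52 (SD, n = 4), in germ-free mice on zinc water. Since the order of levels depends on the transcript taken as the length, it is a description without a test.

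**Figure D1:**
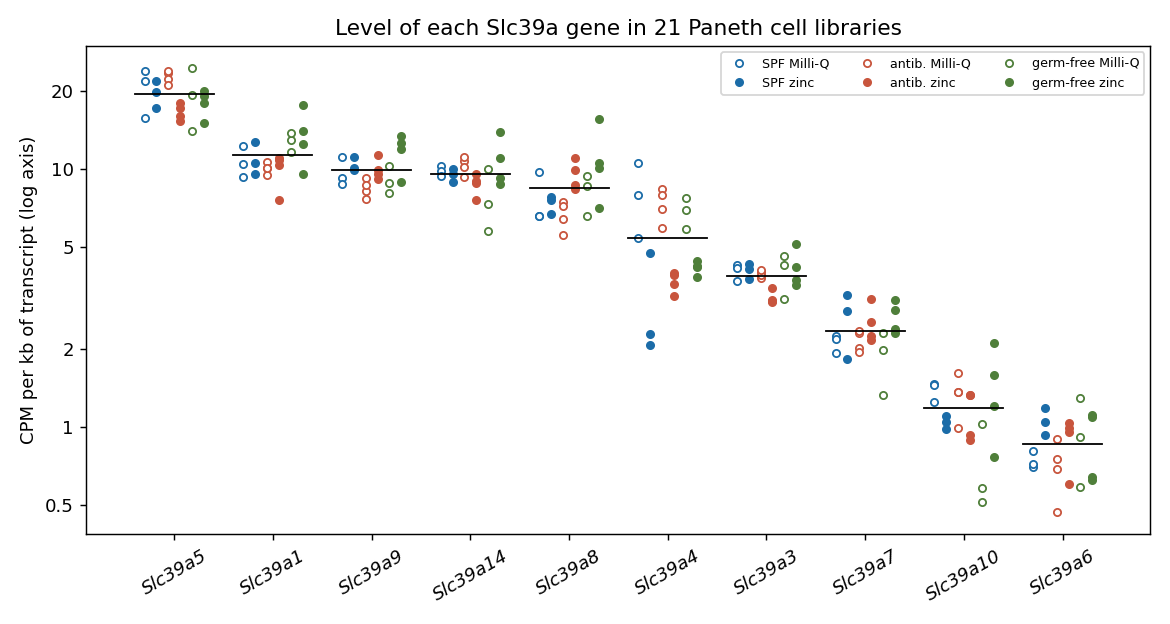
Level of each Slc39a gene in CPM per kilobase of its longest transcript (vertical log axis), with 1 point per library, a colour for each microbiome context, open points for Milli-Q and filled points for zinc water, and a line at the mean of the 21 libraries. Slc39a5 is the highest in each group by its mean, from 16.6 after antibiotics on zinc water to 22.7 after antibiotics on Milli-Q water, and Slc39a6 and Slc39a10 lie lowest.

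Zinc water was compared with Milli-Q water in each microbiome context and over the mean of the 3 contexts. Of the 10 genes, 1 fell in SPF mice, while 2 fell and 1 rose after antibiotics, 1 fell and 1 rose in germ-free mice, and 1 fell and 1 rose over the mean of the contexts. All 10 had enough counts to be tested. The test was the quasi-likelihood F-test of edgeR over 13070 genes with Benjamini-Hochberg adjustment, at an adjusted p of 0.05, and changes are given as log2 fold changes ± standard error. Over all genes tested, 0.138% passed in SPF mice, 21.7% after antibiotics, 11.4% in germ-free mice and 21.9% over the mean of the contexts. The background in germ-free mice rested on single libraries, since its 1485 genes became 5 when Milli-Q replicate 2 was left out and 3435 when zinc replicate 4 was. The median log2 fold change of the 10 genes was -0.02 in SPF, -0.13 in antibiotics-treated and 0.21 in germ-free mice, beside medians over all genes of -0.02, 0.01 and -0.02.

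Slc39a4 (ENSMUSG00000063354, GRCm39 chr15:76496580-76504172, minus strand), the gene of the luminal zinc importer, was the only one of the 10 lower on zinc water past the test in every context. In SPF mice its level on Milli-Q water was 18.1, 35.3 and 26.4 CPM in the 3 libraries, and on zinc water 15.8, 6.97 and 7.67 CPM. After antibiotics it was 27.9, 19.8, 23.4 and 26.4 CPM on Milli-Q water, and 13.2, 13.0, 10.7 and 11.9 CPM on zinc water. In germ-free mice it was 23.1, 19.5 and 25.7 CPM on Milli-Q water, and 14.7, 14.1, 12.7 and 13.9 CPM on zinc water. In every context each zinc library lay below each Milli-Q library, although SPF zinc replicate 1 came close to the lowest SPF library on Milli-Q water. The means on zinc water were 0.382 times those on Milli-Q water for SPF, 0.501 times for antibiotics-treated and 0.609 times for germ-free mice, and 0.275 times for SPF mice without SPF zinc replicate 1.

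By edgeR, Slc39a4 fell by 1.40 ± 0.24 in the SPF context (adjusted p = 0.0146), by 1.00 ± 0.21 after antibiotics (adjusted p = 0.00292) and by 0.72 ± 0.23 in germ-free mice (adjusted p = 0.0461). Over the mean of the contexts it fell by 1.04 ± 0.13 (edgeR adjusted p = 4.97e-05). The fall after antibiotics and the mean fall kept an adjusted p of at most 0.0102 and 0.000291 whichever single library was left out. Without SPF zinc replicate 1 the fall in SPF mice was 1.86 ± 0.23 on the log2 scale (edgeR adjusted p = 0.000124). The change over the mean of the contexts was then -1.19 ± 0.11 (edgeR adjusted p = 9.04e-07). The call in SPF mice was lost without SPF Milli-Q replicate 2 (adjusted p = 0.0719), SPF zinc replicate 2 (0.175) or SPF zinc replicate 3 (0.105). The call in germ-free mice was lost without any single library but germ-free zinc replicate 4, the highest adjusted p being 0.149, and with the replicate number (0.0579) or the library number (0.0651) as a block. Fitted on the compared groups alone, the adjusted p was 0.215 in SPF mice and 0.118 in germ-free mice.

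Some markers of other cells moved beside Slc39a4, and those of enterocytes, the cells for which ZIP4 is best known, in the opposite direction. The summed level of 11 such markers in SPF mice was 462 ± 108 CPM (SD, n = 3, range 372 to 581) on Milli-Q water and 1315.5 ± 386 CPM (SD, n = 3, range 905 to 1672) on zinc water, or 1137 ± 329 CPM (SD, n = 2) without SPF zinc replicate 1. After antibiotics it was 300.4 ± 26.1 CPM (SD, n = 4) and 428 ± 94.0 CPM (SD, n = 4), and in germ-free mice 580.3 ± 330.4 CPM (SD, n = 3) and 915 ± 696 CPM (SD, n = 4). Over the mean of the contexts, where 21.9% of all genes passed, 6 of the 11 rose and 0 fell. An example was Sis, the sucrase-isomaltase of the brush border, with 1.88 ± 0.25 on the log2 scale (edgeR adjusted p = 8.36606e-05). None of the 11 was at 0 in any group. Of 8 goblet markers 4 had a log2 change above 0 and 4 below over the mean of the contexts. Of these 2 were called, the mucin Muc2 falling by 0.74 ± 0.21 and Tff3 by 0.33 ± 0.11 (edgeR adjusted p = 0.0155 and 0.0429). In SPF mice Fcgbp alone was called, falling by 1.20 ± 0.25 (0.0451). The goblet markers summed on Milli-Q and zinc water to 9346 ± 944 and 9550 ± 1140 CPM in SPF mice (SD, n = 3 and 3). The sums were 10466 ± 495 and 10818.5 ± 1940 CPM after antibiotics (SD, n = 4 and 4), and 18864 ± 1028 and 16056 ± 3124 CPM in germ-free mice (SD, n = 3 and 4). Of 8 enteroendocrine markers 0 were called for zinc in SPF mice by edgeR, 7 with a log2 change below 0. After antibiotics 6 were below 0 and 2 above, and the only 1 called, Sct, was higher. In germ-free mice 0 were called, with 5 above 0 and 3 below. Of 9 Paneth cell markers 0 were called over the mean of the contexts, 6 above 0 and 3 below. Only Sox9 was called in a single context, lower after antibiotics. Of 6 stem and cycling markers Ascl2 and Top2a were called after antibiotics and over that mean, 1 higher and 1 lower each time. Of 5 tuft markers tested 0 were called. In SPF mice 4 were above 0 and 1 below, after antibiotics 5 below (median -0.50), and in germ-free mice 2 above and 3 below. The part of these cells in the Slc39a values was not tested, and in bulk libraries fewer cells of a type and less RNA per cell cannot be told apart.

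Slc39a5 (ENSMUSG00000039878, chr10:128231799-128237121, minus strand), the basolateral importer, was lower on zinc water after antibiotics. Its libraries held 47.5, 45.3, 42.9 and 48.6 CPM on Milli-Q water and 31.0, 34.8, 32.3 and 36.4 CPM on zinc water, with no overlap. It fell by 0.45 ± 0.15 there (edgeR adjusted p = 0.0300), and its log2 change was -0.07 ± 0.17 in SPF mice (adjusted p = 0.997) and -0.09 ± 0.16 in germ-free mice (adjusted p = 0.759). The difference between the antibiotics and SPF responses, -0.39 ± 0.22, did not pass the test (edgeR adjusted p = 0.351). The call after antibiotics was lost without Milli-Q replicate 1, 2 or 4 or zinc replicate 1 or 3, the highest adjusted p being 0.0814. The gene lies wholly within Ankrd52 on the opposite strand, which had 9365 counts over all libraries beside 11719 for Slc39a5, and the use of strand in counting was not given in the sources used here.

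**Figure D2:**
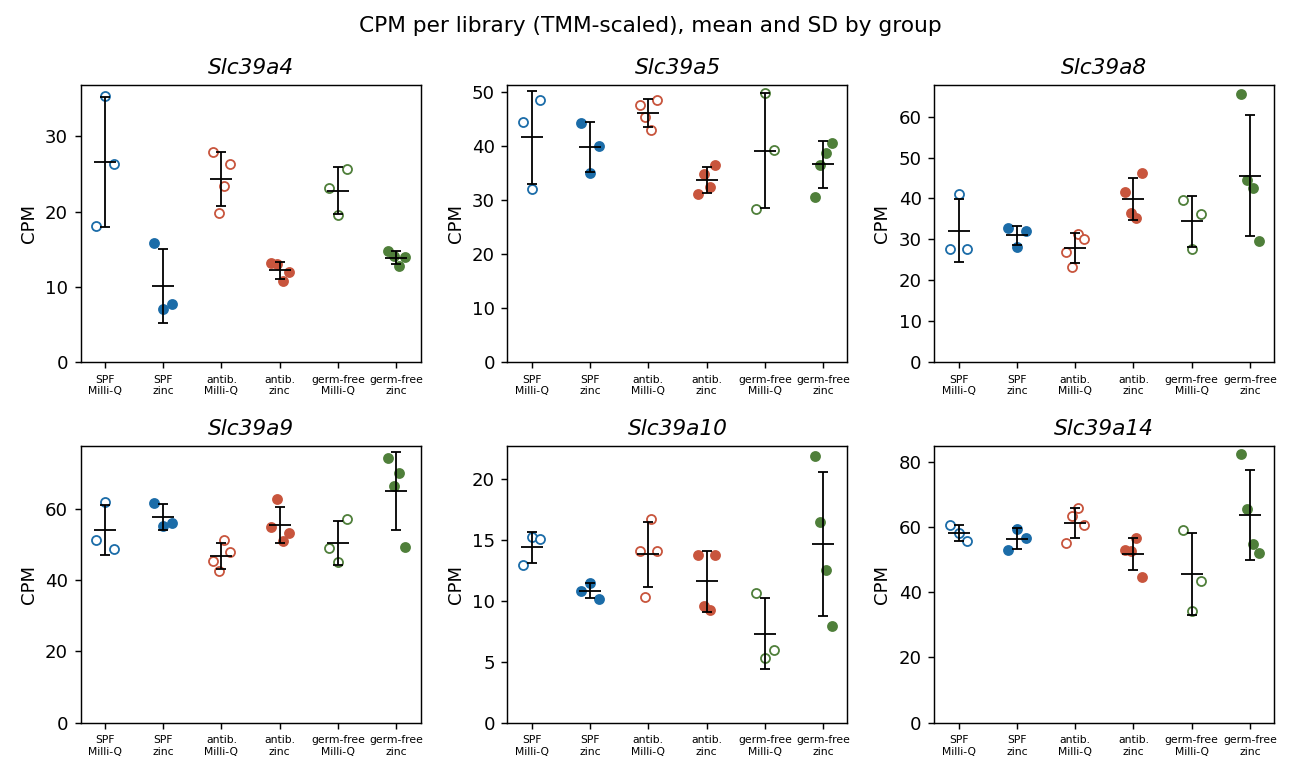
Level of Slc39a4, Slc39a5, Slc39a8, Slc39a9, Slc39a10 and Slc39a14 in CPM (vertical axes, TMM-scaled) in each of the 6 groups, with a point per library and the mean and SD. Slc39a4 is lower in each zinc group than in its Milli-Q group without overlap, and Slc39a10 is lowest in germ-free mice on Milli-Q water, at 5.33 to 10.6 CPM.

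ZIP8 (Slc39a8) and ZIP14 (Slc39a14) carry manganese and iron as well as zinc. Slc39a8 (ENSMUSG00000053897, chr3:135531040-135594333, plus strand) was higher on zinc water after antibiotics, at 41.5, 36.3, 35.3 and 46.2 CPM beside 26.9, 23.3, 31.4 and 30.2 CPM on Milli-Q water. The groups did not overlap, and the rise was 0.51 ± 0.18 on the log2 scale (edgeR adjusted p = 0.0455). In SPF mice the change was -0.06 ± 0.21 and in germ-free mice 0.39 ± 0.20 (adjusted p = 0.997 and 0.199). The call after antibiotics was a narrow one. It was lost without any single Milli-Q library or without zinc replicate 1 or 4, the highest adjusted p being 0.143, and with DESeq2-type size factors (0.0558), library totals alone (0.35 ± 0.18, 0.214) or the replicate number as a block (0.0562).

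Slc39a14 (ENSMUSG00000022094, chr14:70540678-70588914, minus strand) had 59.1, 34.2 and 43.5 CPM in germ-free mice on Milli-Q water and 82.5, 65.6, 54.7 and 52.1 CPM on zinc water. The groups overlapped through germ-free Milli-Q replicate 1. The change in germ-free mice was 0.48 ± 0.16 on the log2 scale and did not pass the test in edgeR (adjusted p = 0.0557), while it did in DESeq2 (0.0304) and limma-voom (0.00472). Without germ-free Milli-Q replicate 1 the edgeR adjusted p was 0.0110. Its changes in SPF mice and after antibiotics were -0.05 ± 0.17 and -0.24 ± 0.14 (adjusted p = 0.997 and 0.229).

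ZIP6 (Slc39a6) and ZIP10 (Slc39a10) are related proteins of the plasma membrane that can form a complex. Slc39a10 (ENSMUSG00000025986, chr1:46845872-46964964, minus strand) was higher on zinc water in germ-free mice, at 21.9, 16.5, 12.5 and 7.97 CPM beside 10.6, 5.33 and 5.997 CPM on Milli-Q water. Germ-free Milli-Q replicate 1 lay above germ-free zinc replicate 4, so that the groups overlapped. The rise was 0.98 ± 0.28 on the log2 scale (edgeR adjusted p = 0.0292). The call ended when Milli-Q replicate 2 or 3 or zinc replicate 1, 2 or 3 of the germ-free mice was left out, with an adjusted p of up to 0.178, or in a fit of the germ-free groups alone (0.146).

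In SPF mice the Slc39a10 values ran the other way. They were 12.9, 15.2 and 15.1 CPM on Milli-Q water and 10.8, 11.4 and 10.2 CPM on zinc water, which did not overlap, but the change of -0.41 ± 0.27 did not pass the test (edgeR adjusted p = 0.997). Slc39a6 (ENSMUSG00000024270, chr18:24711955-24736969, minus strand) was measured from only 28 to 107 counts per library. In SPF mice it had 4.29, 3.73 and 3.82 CPM on Milli-Q water and 4.97, 5.55 and 6.33 CPM on zinc water, again without overlap and not past the test, with a change of 0.51 ± 0.29 (adjusted p = 0.997). Its changes elsewhere were 0.35 ± 0.25 after antibiotics and -0.11 ± 0.30 in germ-free mice (adjusted p = 0.338 and 0.843). It shares 1047 bases with Elp2 on the opposite strand, which had 9320 counts beside 1306 for Slc39a6.

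ZIP1 (Slc39a1) and ZIP3 (Slc39a3) are closely related importers of the plasma membrane. Slc39a1 (ENSMUSG00000052310, chr3:90155138-90160924, plus strand) had group means between 32.5 ± 5.29 CPM (SD, n = 4), after antibiotics on zinc water, and 44.0 ± 11.1 CPM (SD, n = 4), in germ-free mice on zinc water. Its zinc changes were 0.03 ± 0.18 in SPF, -0.02 ± 0.15 in antibiotics-treated and 0.06 ± 0.17 in germ-free mice (edgeR adjusted p = 0.854 or above). Slc39a3 (ENSMUSG00000046822, chr10:80864372-80873260, minus strand) had 15.4, 14.7, 15.1 and 15.8 CPM after antibiotics on Milli-Q water and 11.95, 12.1, 11.86 and 13.4 CPM on zinc water. These did not overlap, and the change of -0.31 ± 0.13 did not pass the test in edgeR (adjusted p = 0.0941) but did in limma-voom (0.0498). Its changes in SPF and germ-free mice were 0.01 ± 0.15 and 0.06 ± 0.15.

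ZIP7 (Slc39a7) releases zinc from the endoplasmic reticulum and ZIP9 (Slc39a9) from the Golgi. Slc39a9 (ENSMUSG00000048833, chr12:80690657-80730116, plus strand) rose over the mean of the contexts by 0.23 ± 0.08 on the log2 scale (edgeR adjusted p = 0.0361). Its group means on Milli-Q and zinc water were 53.9 ± 7.05 and 57.7 ± 3.55 CPM in SPF mice (SD, n = 3 and 3), 46.8 ± 3.72 and 55.4 ± 5.15 CPM after antibiotics (SD, n = 4 and 4), and 50.4 ± 6.20 and 65.0 ± 11.01 CPM in germ-free mice (SD, n = 3 and 4). The libraries overlapped in each context, and none of the contexts alone passed the test (adjusted p = 0.997, 0.160 and 0.0871). Of the 21 libraries, leaving out any of 11 ended the call, with an adjusted p of up to 0.0844, among them SPF zinc replicate 1 (0.0765). The call was also lost with library totals alone, where the change was 0.15 ± 0.10 (0.346), with no filter on low counts (0.0581) and with the library number as a block (0.0578).

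Slc39a7 (ENSMUSG00000024327, chr17:34247243-34250656, minus strand) had 3.24, 5.625 and 4.82 CPM in germ-free mice on Milli-Q water and 5.81, 6.89, 7.55 and 5.634 CPM on zinc water. These were narrowly without overlap, at 25 to 64 counts per library. The change of 0.51 ± 0.24 did not pass the test (edgeR adjusted p = 0.152), nor did the mean over contexts of 0.35 ± 0.13 (0.0535), which did in DESeq2 (0.0412). Slc39a7 shares 3312 bases with the long non-coding gene Gm20427 on the same strand, which had 53 counts beside 1663 for Slc39a7. Reads of the shared bases cannot be told apart by strand, so the level and rank of Slc39a7 may be too low.

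**Figure D3:**
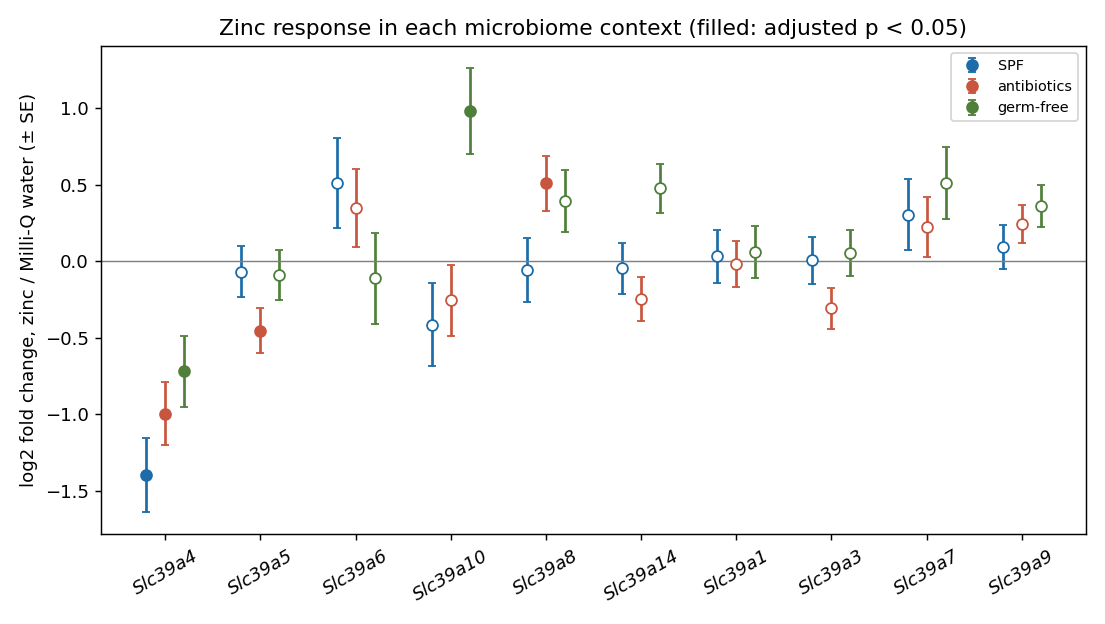
Log2 fold change of zinc over Milli-Q water for each gene in SPF, antibiotics-treated and germ-free mice, with its standard error. Filled points have an edgeR adjusted p below 0.05 and open points do not. Slc39a4 lies below 0 in all 3 contexts, from -1.40 in SPF mice to -0.72 in germ-free mice, and Slc39a10 lies below 0 in SPF mice and above 0 in germ-free mice.

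Whether the zinc response differed between contexts was tested directly. By edgeR 0 of the 10 genes passed for any pair of contexts. Over all genes tested 0% passed for antibiotics against SPF (0 genes, with 2418 at an unadjusted p under 0.05, and 266 by DESeq2 and 473 by limma-voom). For germ-free against SPF 0% passed as well (0 genes, with 1741 unadjusted, and 38 and 354 by the other tools). For germ-free against antibiotics 0.207% passed (27 genes, with 2140 unadjusted, and 323 by DESeq2 and 767 by limma-voom). At an unadjusted p under 0.05 stood 0, 2 and 2 of the 10 genes in these comparisons, where DESeq2 called 0, 0 and 2 and limma-voom 0, 1 and 2. For Slc39a4 the germ-free response was 0.68 ± 0.34 less negative than that in SPF mice (adjusted p = 0.385), and 1.14 ± 0.29 without SPF zinc replicate 1 (edgeR adjusted p = 0.374), so the smaller fall there was not shown to differ. Its response after antibiotics was 0.40 ± 0.32 less negative than that in SPF mice (edgeR adjusted p = 0.512), and 0.87 ± 0.27 without the same library (0.161).

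Slc39a10 and Slc39a14 were the genes that the other tools called. The Slc39a10 response in germ-free mice exceeded that in SPF mice by 1.40 ± 0.39 on the log2 scale (edgeR adjusted p = 0.215, limma-voom 0.0251) and that after antibiotics by 1.24 ± 0.36 (edgeR 0.10, DESeq2 0.0273, limma-voom 0.0103). Without germ-free zinc replicate 4 both passed in edgeR (adjusted p = 0.0177 and 0.0296). The Slc39a14 response in germ-free mice exceeded that after antibiotics by 0.72 ± 0.22 (edgeR adjusted p = 0.111, DESeq2 0.0350, limma-voom 0.0148), and passed in edgeR once either germ-free Milli-Q replicate 1 (0.0233) or zinc replicate 4 of the same mice (0.0451) was left out.

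The microbiome contexts were then compared on the same water. On Milli-Q water 0 of the 10 genes were called after antibiotics against SPF by edgeR, DESeq2 or limma-voom, with 0 at an unadjusted p under 0.05, where 0.199% of all genes passed. On zinc water 0 were called by edgeR and DESeq2 and 1 by limma-voom, with 1 at an unadjusted p under 0.05. Of the 13070 genes tested 8.97% passed by edgeR, 2640 genes passed by limma-voom and 3372 had an unadjusted p under 0.05. The 1 member was Slc39a3, with a difference of -0.35 ± 0.14 (edgeR adjusted p = 0.126, limma-voom 0.0449). The 4 antibiotics libraries on zinc water lay below the 3 SPF libraries for Slc39a3, at 11.9 to 13.4 beside 14.5 to 16.6 CPM, and above them for Slc39a8, at 35.3 to 46.2 beside 28.2 to 32.7 CPM. Slc39a8 did not pass the test (0.37 ± 0.20, edgeR adjusted p = 0.245). For Slc39a4 on zinc water the difference was 0.27 ± 0.23 (edgeR adjusted p = 0.486), and 0.74 ± 0.22 without SPF zinc replicate 1 (0.0521).

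Germ-free and SPF mice, compared on Milli-Q water, differed in 1 of the 10 genes, where 24.2% of all genes passed. Slc39a10 fell by 0.98 ± 0.29 on the log2 scale (edgeR adjusted p = 0.0161), with 5.33 to 10.6 CPM in germ-free beside 12.9 to 15.2 CPM in SPF libraries and no overlap. Leaving out germ-free Milli-Q replicate 2 (0.0954) or 3 (0.0786) ended the call. In the same comparison with TMM factors 5 of 8 enteroendocrine markers were called lower and 1 higher (median -2.03), and 2 of 5 tuft markers tested lower. Of 9 Paneth cell markers 7 were called higher and 1 lower (median 1.08), and of 8 goblet markers 3 higher and 2 lower. Of 6 stem and cycling markers 1 was called higher and 2 lower, and of 11 enterocyte markers 1 lower. Library totals alone gave a median of -0.99 over all genes, and the markers were not tested under that scaling. The part of other cells in the Slc39a10 value was not tested. These germ-free Milli-Q libraries also served as the controls of the zinc comparison above, so the lower level there and the rise on zinc water share the same libraries. On zinc water the Slc39a10 difference was 0.42 ± 0.26 (adjusted p = 0.344). On that water 0 of the 10 genes passed by edgeR and DESeq2 and 1 by limma-voom, with 1 at an unadjusted p under 0.05. Of the 13070 genes tested 5.85% passed by edgeR, 2080 genes passed by limma-voom and 3065 had an unadjusted p under 0.05. The 1 member was Slc39a8, at 0.55 ± 0.20 (edgeR adjusted p = 0.0981, limma-voom 0.0171), which passed in edgeR without germ-free zinc replicate 4 (0.0147). For Slc39a4 on zinc water the difference was 0.45 ± 0.24 (adjusted p = 0.252), and 0.92 ± 0.22 without SPF zinc replicate 1 (0.0261).

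The germ-free comparisons depended on the scaling. The Defa genes took more of the counts in germ-free libraries and the germ-free TMM factors were lower, as given above. On Milli-Q water the Paneth cell markers, scaled by these factors, summed to 637995 ± 12975 CPM (SD, n = 3) in germ-free and 256611 ± 60299 CPM (SD, n = 3) in SPF mice. The lower factors raise the germ-free CPM, so these values are not shares of a library. Scaled by library totals alone, the median of all genes was -0.99 for germ-free against SPF on Milli-Q water and -0.61 on zinc water. There 9 and 5 of the 10 genes were called, all lower, beside 71.4% and 48.3% of all genes. Slc39a10, at -1.94, lay farthest from the median on Milli-Q water and was called lower under both scalings. The other genes moved with those medians, so no direction against SPF mice is given for them. Slc39a10 itself had no call on zinc water under either scaling. In the zinc comparisons, totals alone put the median of all genes at -0.23 for SPF, -0.15 for antibiotics-treated and 0.12 for germ-free mice. Slc39a4 was then at -1.66 in SPF mice, past the test (edgeR adjusted p = 0.00564), and at -0.59 in germ-free mice, no longer past it (0.188).

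**Figure D4:**
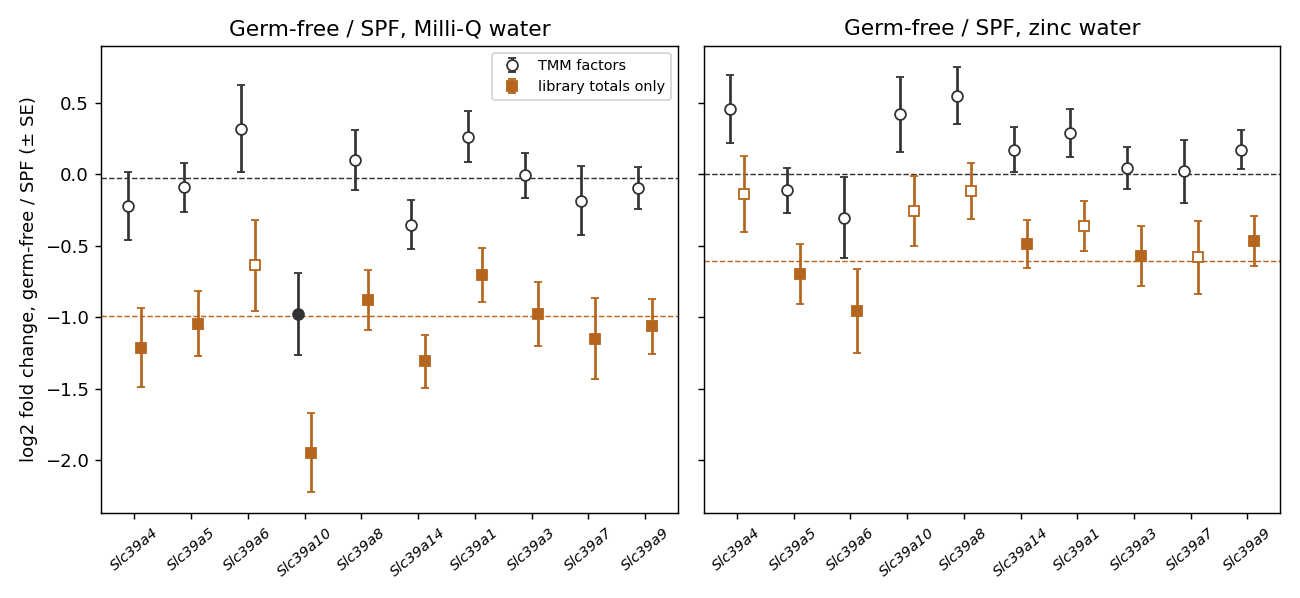
Log2 fold change of germ-free over SPF mice for each gene, with its standard error, under TMM scaling and under library totals alone, on Milli-Q and on zinc water. Filled points have an edgeR adjusted p below 0.05, and dashed lines give the median of all genes, which under totals alone is -0.99 on Milli-Q and -0.61 on zinc water. Most genes lie near the dashed line of their scaling, and Slc39a10 lies lowest on Milli-Q water.

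The other genes of zinc handling gave the setting of these values. Among the 4 Slc39a genes outside the set, Slc39a12 had no counts and 3 were tested. Over the mean of the contexts, where 21.9% of all genes passed, 0 of these rose and 1 fell. This was Slc39a13, a ZIP of the Golgi and vesicles, with -0.43 ± 0.12 (edgeR adjusted p = 0.0147). In single contexts 2 were called, both after antibiotics, where Slc39a11 rose by 0.51 ± 0.17 (edgeR adjusted p = 0.0406) and Slc39a13 fell by 0.75 ± 0.19 (0.00820). There 21.7% of all genes passed. On Milli-Q water, Slc39a13 also passed the test for germ-free against SPF mice with TMM factors, at 0.66 ± 0.22 (0.0297), a value smaller in size than the median of -0.99 that library totals alone gave over all genes, so that no direction is given for it. Of 16 other zinc genes, namely 10 Slc30a genes, Tmem163, Mtf1 and 4 Mt genes, 13 were tested. Over the mean of the contexts 7 of them rose and 0 fell, beside 21.9% of all genes called in either direction. The metallothioneins Mt1 and Mt2 rose by 3.57 ± 0.20 and 5.30 ± 0.27 on the log2 scale (edgeR adjusted p = 1.69e-11 and 5.03e-12). Mt4 also passed, with at most 4 counts in any Milli-Q library and 1 to 48 in zinc libraries, for which no fold is given.

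Among the exporters Slc30a1, which exports zinc across the plasma membrane, rose by 1.22 ± 0.17 (edgeR adjusted p = 0.000143). Slc30a2, Slc30a4 and Slc30a5 fill vesicles and the early secretory pathway. Their changes over the mean of the contexts were 0.31 ± 0.09, 0.37 ± 0.12 and 0.33 ± 0.07 (edgeR adjusted p = 0.0201, 0.0357 and 0.00440). The direction was not the same throughout. Slc30a2 was at 0.72 ± 0.17 in SPF, 0.41 ± 0.15 in antibiotics-treated and -0.20 ± 0.16 in germ-free mice. In the same order Slc30a4 was at -0.09 ± 0.23, 0.50 ± 0.20 and 0.71 ± 0.22. Slc30a5 was at 0.11 ± 0.13, 0.48 ± 0.11 and 0.39 ± 0.13. Slc30a2 was called only after antibiotics, Slc30a4 only in germ-free mice and Slc30a5 in both. In single contexts 3 of the 13 were called higher in SPF mice, 6 after antibiotics and as many in germ-free mice. In each of them 0 were called lower. Of all genes 0.138%, 21.7% and 11.4% passed in these contexts. Thus Mt1 and Mt2 were called in each context beside the fall of Slc39a4, and Slc30a1 after antibiotics and in germ-free mice.

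Genes with a pattern most like the leading members were sought among 9355 genes of at least 5 CPM, by the root mean square distance of 6 group means of log2 CPM, each gene centred on its own mean. For Slc39a4, whose own means spread by 0.544 around their centre, these were Cyba at a distance of 0.182, Stk19 at 0.238 and Tha1 at 0.244. For Slc39a9, with a spread of 0.145, they were Myo10 at 0.0312, Lmbrd1 at 0.0320 and Fech at 0.0349. These are descriptions over 6 groups, in which genes share the same libraries.

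MTF1 binds metal response elements, and the promoters of the set were searched for their core. The letters TGCACNC and TGCGCNC were sought on both strands in RefSeq promoters of 300 bases (GRCm38.p6, 250 before to 50 after the start). The table held 7 of the 10 genes with 10 promoters, and not Slc39a4, Slc39a6 and Slc39a14. A core was found in 3 of the 10 promoters, those of Slc39a3, Slc39a5 and Slc39a8, beside 25.7% of 32851 promoters in the table. The 250 bases before the start are shown for these 3, since Slc39a5 and Slc39a8 passed the zinc test after antibiotics, in opposite directions, and Slc39a3 had no overlap there. Sequences run 5′ to 3′ on the strand of the gene, with the core in capitals.
Slc39a5, chr10:128401225-128401474, minus strand: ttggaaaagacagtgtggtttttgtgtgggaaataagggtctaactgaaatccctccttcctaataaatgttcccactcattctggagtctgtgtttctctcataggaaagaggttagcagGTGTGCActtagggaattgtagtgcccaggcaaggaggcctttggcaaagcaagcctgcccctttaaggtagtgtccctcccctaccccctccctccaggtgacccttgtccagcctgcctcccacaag
Slc39a8, chr3:135825407-135825656, plus strand: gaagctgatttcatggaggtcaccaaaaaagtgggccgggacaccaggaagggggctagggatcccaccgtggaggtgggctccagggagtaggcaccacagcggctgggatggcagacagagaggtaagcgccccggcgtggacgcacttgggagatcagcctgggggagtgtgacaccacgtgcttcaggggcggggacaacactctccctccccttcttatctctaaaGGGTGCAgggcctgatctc
Slc39a3, chr10:81037316-81037565, minus strand: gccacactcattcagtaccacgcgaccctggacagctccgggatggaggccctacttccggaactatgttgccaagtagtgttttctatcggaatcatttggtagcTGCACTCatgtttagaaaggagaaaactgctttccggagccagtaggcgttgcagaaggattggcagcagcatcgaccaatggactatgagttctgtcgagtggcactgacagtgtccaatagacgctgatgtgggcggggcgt
The core in the Slc39a5 promoter spanned positions -129 to -123 from the start and that in the Slc39a8 promoter -19 to -13, both on the strand opposite to the gene. In the Slc39a3 promoter it spanned -144 to -138 on the strand of the gene. Slc39a5 and Slc39a8 each had another promoter in the table without a core, as did Slc39a1, Slc39a7, Slc39a9 and Slc39a10 in theirs. A match of these letters is a description and not a binding site.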

How the data were processed

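Libraries were stranded mRNA libraries of RNA from sorted Paneth cells. The counts that the authors deposited were raw, in 1 table of Ensembl genes by libraries, with no normalization. Per the submitters' processing notes, the build was mm39 and the tools were FastQC 0.12.0, STAR 2.7.0a and DESeq2. How reads were counted, and whether by strand, was not given in the sources used here, so reads of overlapping genes may have been dropped or shared. All 21 columns were matched to samples by name. Of 55414 identifiers, 54749 matched the GENCODE M39 annotation of GRCm39, the source of symbols, coordinates and lengths.

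Counts were tested with edgeR 4.0.16 (R 4.3.3) in a single fit of 21 libraries with a coefficient for each of 6 groups, TMM factors, genes kept by filterByExpr (13070) and adjustment by Benjamini-Hochberg in each of 11 comparisons. CPM values were scaled by TMM factors. P-values measure the spread between these mice. Same-numbered libraries did not deviate together (3 of 10 pairs with a correlation over 0.1, range -0.166 to 0.229), so replicate numbers were not used as pairs. No libraries agreed within sampling noise. Alternatives were DESeq2 1.42.0, limma-voom (limma 3.58.1), other scalings, filters and lengths, a replicate block, the compared groups alone and the omission of each library. Totals of 9888174 to 16896714 counts put the 10 genes at 25 to 1371 counts per library. All 10 genes were named whatever their values. Other zinc genes were given with values where they passed over the mean of the contexts, apart from Slc39a11, given for its call after antibiotics. Named too were 3 like genes each for the 2 called genes of largest mean zinc change. The genes and lists were chosen with earlier results of these data known. Figures used matplotlib 3.10.9 in Python 3.11.15.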

Additional observations from a re-analysis of the deposited data

Results flagged for a closer look

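Slc39a3 in the antibiotics group on zinc water, replicate 4, was set apart from the other libraries of its group. Its level was 13.4 CPM, the highest of 4, and its gap to the next library was 0.849 of the range of the group, beyond the limit of Dixon's test for a group of 4. This was 1 of 30 groups tested, and chance sets apart about 1 in 20.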

How the results depend on the processing

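The falls of Slc39a4 after antibiotics and over the mean of the contexts passed under every alternative run. Of 1110 values with a library left out, 1052 kept their call, 38 lost it and 20 gained it. Of 2200 values compared, 99 changed sign without a call on either side. With a library left out, the number of genes called ranged from 0 to 1 for zinc in SPF mice, 1 to 3 after antibiotics, 0 to 5 in germ-free mice, 1 to 4 over the mean of the contexts, 0 to 2 for germ-free against SPF on Milli-Q water and 0 to 1 on zinc water. For the difference of the zinc response it ranged from 0 to 1 between germ-free and SPF and from 0 to 2 between germ-free and antibiotics. Library totals alone called 1 gene over the mean of the contexts and 9 and 5 for germ-free against SPF on Milli-Q and zinc water. They reversed Slc39a1 (-0.70) and Slc39a8 (-0.88) on Milli-Q water and Slc39a3 (-0.57), Slc39a9 (-0.46) and Slc39a14 (-0.49) on zinc water, where the medians of all genes were -0.99 and -0.61. DESeq2 called 2 genes for the germ-free minus antibiotics response. Limma-voom called 4 for zinc in germ-free mice, 4 over the mean of the contexts, 1 for antibiotics on zinc water, 2 and 1 for germ-free on Milli-Q and zinc water, and 1 and 2 for the germ-free response minus that in SPF and after antibiotics. Without a filter on low counts, 1 was called for germ-free on zinc water, and 1 and 2 for the same response differences. The compared groups alone gave 0 for zinc in SPF and 0 in germ-free mice. With the replicate number as a block, 1 gene was called for zinc in SPF mice, 2 after antibiotics, 2 in germ-free mice and 2 over the mean of the contexts. The block ended the calls of Slc39a8 after antibiotics (0.0562) and Slc39a4 in germ-free mice (0.0579), made 1 of Slc39a14 in germ-free mice (0.0401) and changed no other call. A replicate block by library number, chosen after seeing the data, gave 1 for zinc in germ-free mice and 1 over the mean of the contexts. With the median protein-coding transcript length, levels were 13.9 for Slc39a1, 3.68 for Slc39a7 and 1.96 for Slc39a10 in CPM per kilobase. Over all genes, the counts called in the alternatives other than left-out libraries, beside those of the reported fit, were 11 to 269 (18) for zinc in SPF mice, 1445 to 3853 (2838) after antibiotics, 3 to 3157 (1485) in germ-free mice, 1286 to 4126 (2860) over the mean of the contexts, 11 to 406 (26) and 606 to 2640 (1172) for antibiotics on Milli-Q and zinc water, and 2388 to 9338 (3169) and 14 to 6310 (764) for germ-free. For the differences of the zinc response they were 0 to 675 (0), 0 to 429 (0) and 2 to 767 (27). With a library left out, they ranged from 5 to 37 for zinc in SPF mice, from 1317 (without Milli-Q replicate 2) to 2680 after antibiotics, from 5 to 3435 in germ-free mice, from 1946 to 4159 over the mean of the contexts, from 10 to 83 and 272 (without SPF zinc replicate 2) to 1059 for antibiotics on Milli-Q and zinc water, from 1661 (without germ-free Milli-Q replicate 2) to 3253 and 51 (without SPF zinc replicate 2) to 1573 (without germ-free zinc replicate 4) for germ-free, and from 0 to 21, 0 to 767 and 0 to 362 for the response differences. The causes of these changes were not tested. Slc39a6 and Slc39a7, with at most 107 and 123 counts per library, were measured least precisely.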
